A study of Columba livia with 12 samples.

Results

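The liver miRNAs of fast-growing nestling pigeons were compared with those of adults, over every mature miRNA name that was counted. Of the 12 liver libraries in the series, 6 belong to this comparison, 3 from squabs aged 14 days and 3 from parent birds aged 2 years. All birds were domestic pigeons (Columba livia) of the white king breed, and no agent or genetic change is named for either age, so the groups differ by age and by being nestlings or breeding adults. Each age had 16 birds, the squabs of mixed sex and the parents 8 males and 8 females, and 3 pigeons per age were sequenced individually. Which sexes were sequenced is not stated. All 1039 mature names were members, and 345 of them had enough counts to be tested. In bulk tissue, fewer cells of a type and less RNA per cell cannot be told apart, and this holds for every difference below.

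A miRNA is cut from a hairpin precursor that has a 5p and a 3p arm, and usually 1 arm is kept in the Argonaute complex while the other is degraded. The kept strand pairs with mRNAs through its seed, a short stretch near its 5′ end, and lowers their translation and stability, so miRNAs that share a seed form a family with overlapping targets. In the liver, miRNAs are known for holding hepatocytes in their differentiated state, for tuning cholesterol and lipid handling, and for marking the smooth muscle, stellate, endothelial and blood cells of the organ.

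The libraries held 3741429, 5707125 and 7088182 counts at 14 days and 7613374, 8895684 and 9393075 counts at 2 years, so every adult library was deeper than every nestling library. The nestling libraries had counts for 503 ± 1.00 names (mean ± SD, n = 3) and the adult libraries for 359 ± 18.8 names. With every library thinned to 3741429 counts these became 493 and 338 names, so the fewer names at 2 years did not come with lower depth. The 10 most abundant miRNAs of each library took 71.7 ± 0.744% of its counts at 14 days and 84.5 ± 1.95% at 2 years. For the counts, the names and the share of the top 10, the ages did not overlap, and an exact two-sided permutation test gave p = 0.10 for each, the smallest p that 3 against 3 allows. Spearman correlations of log CPM, the counts relative to the scaled library size, were 0.875 to 0.919 among the nestlings, 0.893 to 0.909 among the adults and 0.798 to 0.847 between the ages.

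The adult liver put more of its miRNA into a few names, and most of the remaining miRNAs held a smaller share. After TMM scaling, which sets library scale by the bulk of miRNAs rather than by the total, 102 of 345 miRNAs passed the test (29.6%; edgeR quasi-likelihood test, adjusted p below 0.05). Of these 46 were higher at 2 years (13.3%) and 56 were lower (16.2%). Some of the falls had no count in any adult, and these are given near the end of the Results. With libraries scaled by their total count alone, 138 passed (40.0%), 14 of them higher (4.06%) and 124 lower (35.9%). The change of scale moved every fold change by a median of -1.03 on the log2 scale, and the median log2 fold change of the 345 tested miRNAs was -0.41 with TMM and -1.45 with the total. Calls in the same direction under both scalings numbered 70 (20.3%), 14 higher and 56 lower. All 56 falls were thus called under both, and 32 of the 46 rises with TMM alone. Because the total count moved fold changes downward, it enlarged falls and could hardly end their calls. A fall called under both scalings is therefore not better supported than one called with TMM. Without 1 library of any age at a time, the count of falls lay between 17 and 55. Without 1 of the 6 compared libraries it lay between 17 and 29, always below the 56 of the main fit. It was 17 without adult 2 or adult 3 and 20 without nestling 1. The CPM of the ages did not overlap for 192 of the 345 miRNAs (55.7%), higher at 2 years in 79 (22.9%) and lower in 113 (32.8%). The 10 largest rises and 10 largest falls named below were required not to overlap. For these names, a lack of overlap is therefore no added support. CPM values given below are on the TMM scale, shares are of all counts in a library, and a fold change whose call needs TMM is named as such.

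**Figure D1:**
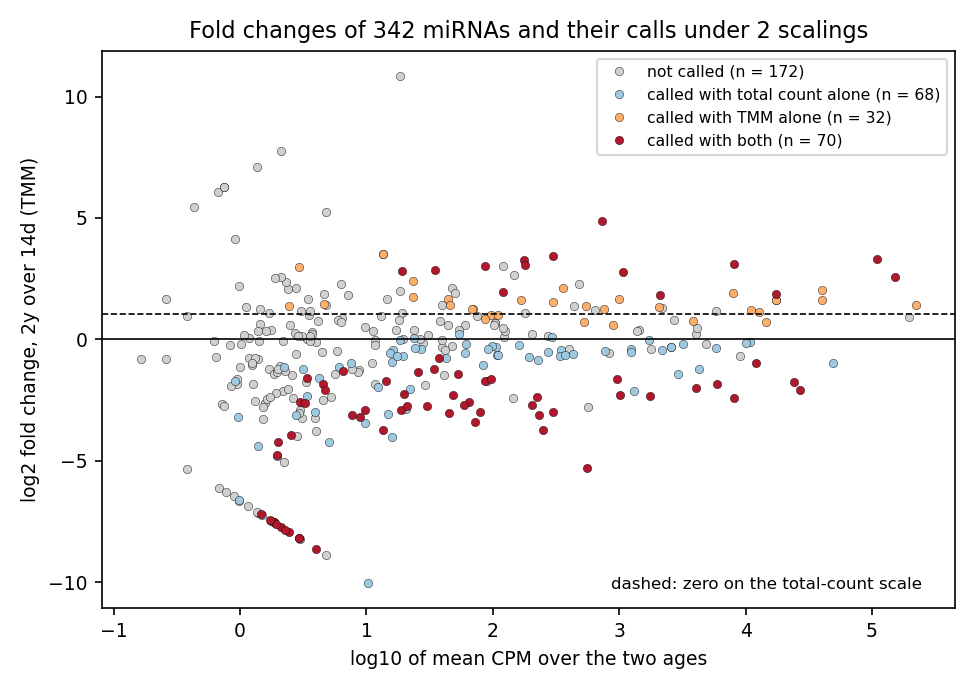
Each point is 1 of the 342 tested miRNAs with a count at either age, placed by its mean CPM over the ages (horizontal, log10) and its log2 fold change, 2 years over 14 days, on the TMM scale (vertical). Red points passed the test under both scalings, orange points with TMM alone and blue points with the total count alone. The dashed line marks where a miRNA with an equal share of counts at both ages would fall. Orange points all lie above zero, and the 56 falls called with TMM are all red.

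The most abundant miRNAs of the 1039 names differed between the ages in rank as well as in level. miR-148a-3p, which is abundant in mammalian hepatocytes and represses the LDL receptor there, had 5.66, 5.83 and 6.41% of counts at 14 days and 18.04, 17.99 and 15.8% at 2 years. Every adult share was above every nestling share, and on the TMM scale it rose 5.97-fold (log2 fold change 2.58 ± 0.32, SE, edgeR, adjusted p = 0.000479). miR-143-3p, a smooth muscle and fibroblast miRNA in mammals, had 2.22, 2.57 and 3.403% of counts at 14 days and 9.69, 16.5 and 13.4% at 2 years. It rose 10.03-fold (log2 fold change 3.33 ± 0.49, SE, edgeR, adjusted p = 0.000816), with no overlap between the ages. Both rises were also called with the total count alone. At 14 days miR-30d-5p, with 11.5, 6.74 and 8.45% of counts, was above miR-148a-3p in every library, and at 2 years it was below it in every library.

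miR-26-5p, which represses cyclin mRNAs in mammalian hepatocytes, had 12.04, 19.8 and 18.7% of counts at 14 days and 24.2, 17.5 and 22.5% at 2 years. The shares of the ages overlapped, and its TMM rise of 2.69-fold (edgeR, adjusted p = 0.0242) was not called with the total count. The call also ended without any of the nestlings, adult 1 or adult 3, with edgeR adjusted p from 0.0534 to 0.0793. miR-22-3p, an abundant miRNA of many vertebrate tissues, had 15.5, 20.7 and 20.1% of counts at 14 days and 15.3, 14.4 and 20.3% at 2 years. The ages overlapped in share, and the log2 fold change was 0.92 ± 0.45 (SE) with TMM (edgeR, adjusted p = 0.146) and -0.17 with the total count. For these 2 names, which held the most counts, the test therefore gave no call that held under both scalings.

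**Figure D2:**
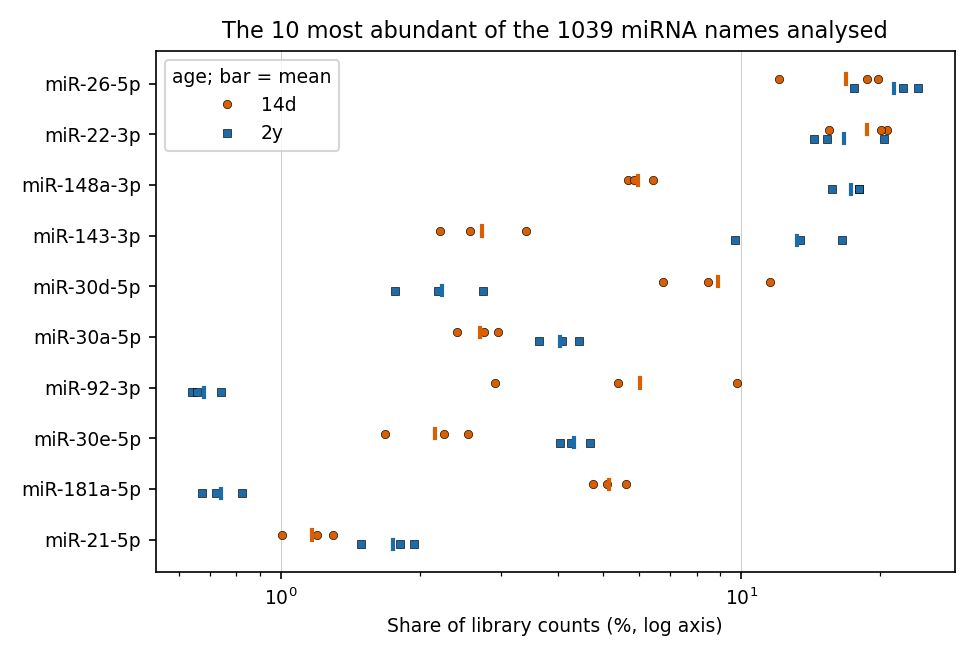
Share of library counts (%, log axis) of the 10 miRNAs with the largest mean share over the 6 libraries. Circles are 14-day and squares 2-year libraries, and bars are the means of 3. miR-148a-3p and miR-143-3p lie higher in all adults, miR-92-3p and miR-181a-5p lower, and miR-26-5p and miR-22-3p overlap between the ages.

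Main arms of the miR-30 family share a seed, and the family is abundant in epithelia and hepatocytes. Lists here and below count both arms of a hairpin, and the partner arms carry other seeds. Of the 8 tested names, 3 were higher with TMM and none lower, and with the total count none was higher and 3 were lower. Across all 345 tested miRNAs, 13.3% were higher and 16.2% lower with TMM, and 4.06% and 35.9% with the total count. Those shares apply to every list below. The median log2 fold change was 0.35 with TMM and -0.67 with the total count. miR-30a-5p had 2.76, 2.41 and 2.96% of counts at 14 days and 4.07, 4.43 and 3.63% at 2 years. miR-30e-5p had 2.54, 1.68 and 2.26% of counts at 14 days and 4.26, 4.68 and 4.04% at 2 years. Both lay higher in every adult, by 3.07-fold (edgeR, adjusted p = 0.000583) and 4.100-fold (edgeR, adjusted p = 0.00104) with TMM. miR-30d-5p went the other way in share, with 11.5, 6.74 and 8.45% of counts at 14 days and 1.77, 2.74 and 2.195% at 2 years. Its shares did not overlap, and it was called lower with the total count (edgeR, adjusted p = 0.00144) and not with TMM (edgeR, adjusted p = 0.0578). The most abundant member at 14 days was thus miR-30d-5p, and at 2 years it had a lower share than miR-30a-5p and miR-30e-5p in every library. The remaining rise, of miR-30d-3p, ended without any of nestlings 2 and 3 and adults 2 and 3 (edgeR, adjusted p from 0.061 to 0.085) and turned to -0.04 (log2) with the total count.

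The hepatocyte-enriched list (miR-101, miR-148, miR-194 and miR-215) took 6.28 ± 0.348% of counts at 14 days and 18.3 ± 1.49% at 2 years. Of its 8 tested names, 5 were higher and 1 lower with TMM, beside 13.3% and 16.2% of all 345 miRNAs. With the total count 3 were higher and 2 lower, beside 4.06% and 35.9%. Its median log2 fold change was 1.73 with TMM and 0.66 with the total count. miR-148a-3p alone held 94.3% of the list's counts. miR-101-3p, which represses the chromatin enzyme EZH2 in mammals, had 2043, 1482 and 1538 CPM at 14 days and 13353, 15729 and 14241 CPM at 2 years. The ages were far apart with little spread within them, and it rose 8.56-fold (log2 fold change 3.10 ± 0.23, SE, edgeR, adjusted p = 2.66e-05), under both scalings. miR-215-5p, an epithelial miRNA of the mammalian gut, kidney and liver, had 48.1, 51.3 and 48.01 CPM at 14 days and 3327, 82.1 and 869 CPM at 2 years. Adult 2 lay near the nestlings and adult 1 was far above, so the fold of 29.00 (log2 fold change 4.86 ± 1.01, SE, edgeR, adjusted p = 0.00646) became 10.2 without adult 1 and 44.8 without adult 2. miR-194-5p, encoded beside miR-215 in mammals, had 10.2, 34.03 and 9.78 CPM at 14 days and 185, 4.16 and 44.4 CPM at 2 years, overlapping and not called (edgeR, adjusted p = 0.182). For both miRNAs adult 2 was the lowest adult and adult 1 the highest. The fall in the list was miR-148a-5p, the other arm of the miR-148a hairpin, with 422, 360.3 and 275 CPM at 14 days and 74.8, 44.4 and 43.3 CPM at 2 years. Every adult was below every nestling, a fall of 6.51-fold (log2 fold change -2.70 ± 0.30, SE, edgeR, adjusted p = 0.000323). A second 5p entry, miR-148a-1-5p under a name taken over from other species, went the other way with TMM. It was called higher (log2 fold change 0.84), and its sign turned with the total count.

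Members of the miR-29 family and miR-33-5p were among the other large rises. The miR-29 family represses collagen mRNAs in mammalian stellate cells. Of its 4 tested names 2 were higher and none lower under either scaling, with a median log2 fold change of 2.31 (TMM). Higher calls made up 13.3% of all 345 miRNAs with TMM and 4.06% with the total count. miR-29a-3p had 359.9, 242 and 225 CPM at 14 days and 1728, 2030.3 and 1882 CPM at 2 years. miR-29b-3p had 46.9, 31.8 and 36.9 CPM at 14 days and 345, 310.0 and 298 CPM at 2 years. The ages were well apart for both, with rises of 6.81-fold (edgeR, adjusted p = 0.000323) and 8.24-fold (edgeR, adjusted p = 0.000479). miR-33-5p lies within a sterol regulator gene and represses the cholesterol exporter ABCA1 in mammals. It had 29.3, 16.1 and 11.7 CPM at 14 days and 112, 195 and 156 CPM at 2 years, a rise of 8.12-fold without overlap (edgeR, adjusted p = 0.00104). It was the only call with TMM among the 4 tested names of the lipid metabolism list. With the total count 1 was higher and 2 were lower, beside 4.06% and 35.9% of all 345 miRNAs. The list's other abundant names, miR-103-3p and miR-107-3p, are linked to insulin sensitivity in mice. Their counts were near equal in every library, within 10%, so the counting may have split or shared reads between them. miR-103-3p had 3195, 2463 and 2877 CPM at 14 days and 2179.7, 2097 and 2597 CPM at 2 years, overlapping and not called with TMM (edgeR, adjusted p = 0.408), and lower with the total count.

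miR-190-5p, intronic to the TLN2 gene in mammals, had 42.2, 23.5 and 32.9 CPM at 14 days and 236, 300.3 and 421 CPM at 2 years. It rose 9.71-fold (log2 fold change 3.28 ± 0.39, SE, edgeR, adjusted p = 0.000332), and its other arm, miR-190-3p, rose 6.97-fold (edgeR, adjusted p = 0.000661), both under both scalings. The list that holds them, miR-190 and miR-551, was drawn up with earlier results of these data known. Of its 5 tested names 2, the arms of miR-190, were higher and 1 lower under both scalings. Over all 345 miRNAs 13.3% were higher and 16.2% lower with TMM, and 4.06% and 35.9% with the total count. The fall was miR-551b-5p, with 119, 42.3 and 78.97 CPM at 14 days and 12.01, 8.01 and 8.998 CPM at 2 years. Outside the naming rule, and chosen after their values were seen, miR-140-5p and miR-32-5p were also higher under both scalings. miR-140-5p, best known from cartilage, had 50.8, 41.3 and 57.6 CPM at 14 days and 165, 181 and 229.6 CPM at 2 years, a rise of 3.84-fold (edgeR, adjusted p = 0.000332). miR-32-5p rose 7.16-fold (edgeR, adjusted p = 0.000661) from a mean of 8.47 to 60.7 CPM. The ages did not overlap for either.

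**Figure D3:**
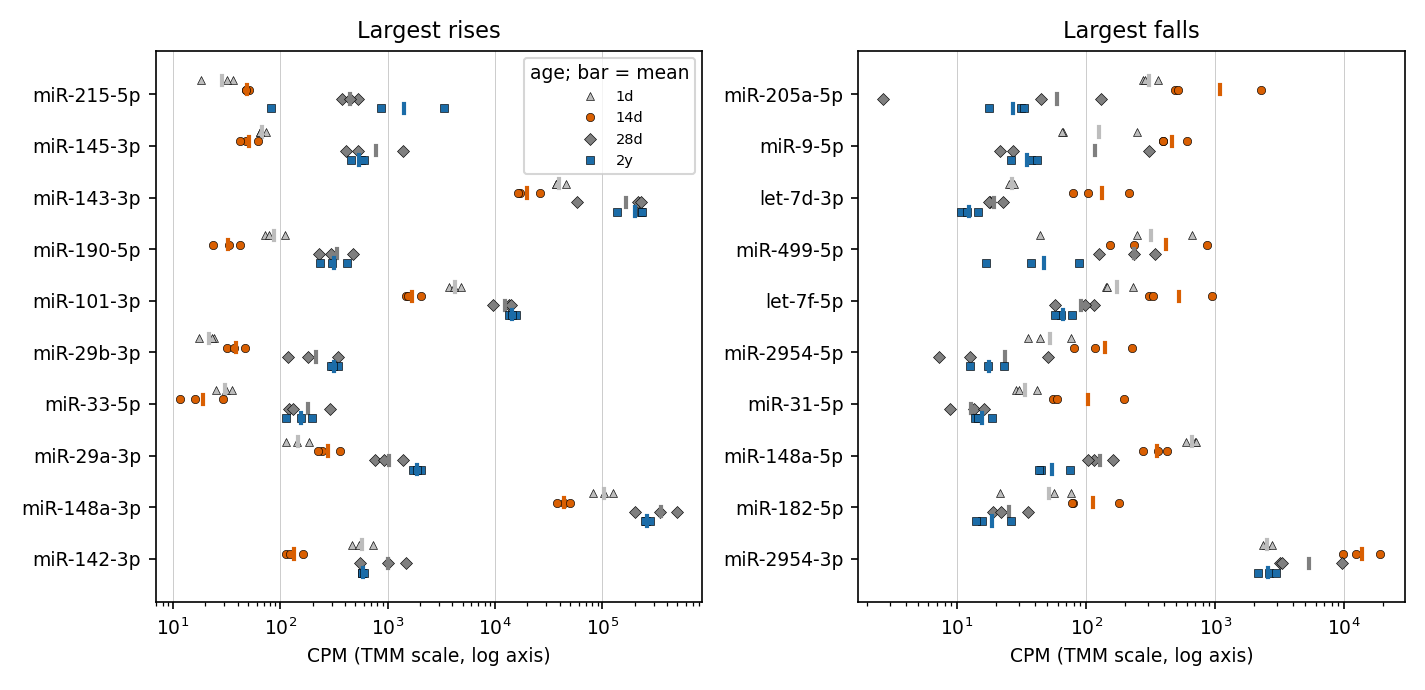
CPM on the TMM scale (log axis) of the 10 largest rises (left) and the 10 largest falls (right) among called miRNAs that reached a mean of 100 CPM at 14 days or 2 years and whose ages did not overlap. Circles are 14-day and squares 2-year libraries, triangles are 1-day and diamonds 28-day libraries, and bars are means of 3. The adults spread widely for miR-215-5p, and nestling 1 lies above the other nestlings for miR-205a-5p, let-7f-5p and miR-31-5p.

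The 28-day libraries give 3 of these rises a place in time, as mean values beside the comparison. Of the 3 libraries titled and staged as 1 day, 2 carry descriptions that name pigeons of 2 and 3 days, so the 1-day means below may span those ages. The mean CPM of miR-143-3p was 39764 at 1 day, 19882 at 14 days, 166703 at 28 days and 199511 at 2 years. That of miR-148a-3p was 103804, 43381, 348764 and 259192 at the same ages. That of miR-29a-3p was 146, 276, 1027 and 1880.1. For the first pair the 14-day mean was the lowest of the 4 ages, and for miR-29a-3p the 1-day mean was the lowest. The 28-day mean of each was closer to the adult than to the nestling mean on a log scale. The 28-day libraries were not alike, with TMM scaling factors of 0.9531, 0.5155 and 0.5123, so these means may hide spread. The comparisons of 2 years and of 28 days with 14 days share the 14-day libraries.

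Among miRNAs tied to growth, names of 1 list moved in different directions with TMM. The miR-17-92 cluster and its paralogs are switched on by MYC in proliferating mammalian cells. The list took 6.36 ± 3.49% of counts at 14 days and 0.993 ± 0.0215% at 2 years, and miR-92-3p held 88.5% of the list's counts. Of 19 tested names 3 were higher and 6 lower with TMM, beside 13.3% and 16.2% of all 345 miRNAs. With the total count none was higher and 11 were lower, beside 4.06% and 35.9%. The median log2 fold change was -0.44 with TMM and -1.51 with the total. miR-92-3p had 9.78, 5.38 and 2.91% of counts at 14 days and 0.741, 0.640 and 0.656% at 2 years. Nestling 1 held the highest share, the ages did not overlap, and the fall of 4.29-fold (log2 fold change -2.10 ± 0.47, SE, edgeR, adjusted p = 0.00891) was 2.65-fold without nestling 1. Without adult 2 the call ended (edgeR, adjusted p = 0.051). miR-19b-3p and miR-20a-5p, from the same cluster in mammals, rose 3.18-fold (edgeR, adjusted p = 0.0089) and 2.62-fold (edgeR, adjusted p = 0.00274) with TMM and were not called with the total count. miR-17-5p rose 1.52-fold with TMM (edgeR, adjusted p = 0.0462), and its log2 fold change was -0.45 with the total count.

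The let-7 family represses LIN28 and other growth genes in animals. Of 14 tested names none was higher, and 3 were lower with TMM and 7 with the total count, with medians of -0.17 and -1.23 (log2). Over all 345 miRNAs 16.2% were lower with TMM and 35.9% with the total count. let-7f-5p had 949.6, 305 and 331 CPM at 14 days and 77.8, 63.5 and 57.2 CPM at 2 years. It fell 7.99-fold (log2 fold change -2.998 ± 0.49, SE, edgeR, adjusted p = 0.00158), and 4.46-fold without nestling 1, the highest library. let-7d-3p had 216, 104 and 78.8 CPM at 14 days and 10.7, 12.01 and 14.6 CPM at 2 years, a fall of 10.7-fold (edgeR, adjusted p = 0.000323) and of 6.91-fold without nestling 1. let-7d-5p, the partner arm, fell 3.095-fold (edgeR, adjusted p = 0.0145), a call that ended without nestling 2, adult 2 or adult 3 (edgeR, adjusted p from 0.0549 to 0.0746). In all 3 the ages did not overlap, which the rule that named let-7f-5p and let-7d-3p as large falls required. Over all 345 miRNAs the CPM of the ages did not overlap for 55.7%.

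The miR-181 family, known from lymphoid and hepatic progenitor cells of mammals, took 5.41 ± 0.435% of counts at 14 days and 0.766 ± 0.0808% at 2 years. Of its 4 tested names 3 were lower and none higher under both scalings, with a median log2 fold change of -1.69 (TMM). Lower calls made up 16.2% of all 345 miRNAs with TMM and 35.9% with the total count. miR-181a-5p had 5.61, 4.76 and 5.097% of counts at 14 days and 0.724, 0.822 and 0.672% at 2 years, a fall of 3.39-fold on the TMM scale (edgeR, adjusted p = 0.0168). Every adult was far below every nestling, yet the call ended without nestling 1, nestling 3 or any of the adults (edgeR, adjusted p from 0.0506 to 0.072). miR-181b-5p fell 4.86-fold (edgeR, adjusted p = 0.0112), a call that ended without adult 3 (edgeR, adjusted p = 0.0625). miR-181a-3p fell 3.08-fold (edgeR, adjusted p = 0.000583).

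miR-222a-3p represses the cell cycle inhibitor CDKN1B in mammals and had 8029, 4198 and 7395 CPM at 14 days and 2989, 571 and 1281 CPM at 2 years. Adult 1 was nearer the nestlings than the other adults. The fall of 4.05-fold (edgeR, adjusted p = 0.0245) was 6.63-fold without adult 1, and the call ended without nestling 1, nestling 3, adult 2 or adult 3 (edgeR, adjusted p from 0.0708 to 0.102). It was the 1 call among 4 tested names of miR-221 and miR-222 with TMM, and 3 were lower with the total count. Beside these stand 16.2% of all 345 miRNAs lower with TMM and 35.9% with the total count. miR-221-3p had 1578, 1078 and 1524 CPM at 14 days and 1709.7, 647 and 851 CPM at 2 years, overlapping and not called with TMM (edgeR, adjusted p = 0.52). miR-21, which is induced in growth and injury in mammals, rose in both arms with TMM, by 3.06-fold for miR-21-5p (edgeR, adjusted p = 0.0139) and 3.03-fold for miR-21-3p (edgeR, adjusted p = 0.00644). Neither arm was called with the total count, although the shares of miR-21-5p, 1.197, 1.01 and 1.29% of counts at 14 days and 1.94, 1.81 and 1.49% at 2 years, did not overlap.

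miR-15c-5p and miR-128-3p, chosen after their values were seen, were abundant falls outside the naming rule. miR-15c-5p carries the name of the miR-15 family, which represses cyclins in mammals, and had 3744, 2949.7 and 2076 CPM at 14 days and 574, 459 and 719 CPM at 2 years. It fell 5.01-fold (edgeR, adjusted p = 0.000758). miR-128-3p, enriched in the mammalian brain, had 10164, 9988 and 7955 CPM at 14 days and 3096, 1729.6 and 2915 CPM at 2 years and fell 3.63-fold (edgeR, adjusted p = 0.00263). The ages were well apart for both.

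Markers of mesenchymal cells did not move as 1 group. The list (miR-214, miR-199, miR-145 and miR-143) took 4.62 ± 0.847% of counts at 14 days and 15.5 ± 3.48% at 2 years, 81.3% of it miR-143-3p over the 6 libraries. Of 10 tested names 3 were higher and 1 lower with TMM, beside 13.3% and 16.2% of all 345 miRNAs. With the total count 3 were higher and 2 lower, beside 4.06% and 35.9%. The median log2 fold change was 0.14 with TMM and -0.89 with the total count. miR-199-3p, chosen after its values were seen, had 6772, 7376 and 8157 CPM at 14 days and 26392, 28447 and 27224 CPM at 2 years, a rise of 3.68-fold (edgeR, adjusted p = 0.00263). miR-214-3p, made from the same transcript as miR-199 in mammals, had 599, 302 and 224 CPM at 14 days and 72.6, 69.00 and 76.5 CPM at 2 years. It fell 5.16-fold (edgeR, adjusted p = 0.00221), and 3.42-fold without nestling 1. Both had no overlap between the ages. miR-145-3p had 48.1, 42.3 and 61.9 CPM at 14 days and 453, 567 and 607 CPM at 2 years, a rise of 10.7-fold (log2 fold change 3.42 ± 0.44, SE, edgeR, adjusted p = 0.0005). miR-145-5p, its far more abundant partner arm, had 2015, 1839.8 and 2210.4 CPM at 14 days and 1189, 1707 and 1729 CPM at 2 years and was not called (edgeR, adjusted p = 0.591).

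The endothelial marker miR-126, from an intron of EGFL7 in vertebrates, was called higher in both arms with TMM and in neither with the total count. miR-126-3p had 1.36, 1.56 and 1.65% of counts at 14 days and 1.17, 1.26 and 1.13% at 2 years. Its share was lower in every adult, and its log2 fold change was 0.69 ± 0.22 (SE) with TMM (edgeR, adjusted p = 0.0371) and -0.36 with the total count, so its direction turned with the scale. Both calls also ended when libraries were left out. miR-126-3p lost its call without nestling 2, nestling 3 or any of the adults (edgeR, adjusted p from 0.053 to 0.096). miR-126-5p rose 2.31-fold with TMM (edgeR, adjusted p = 0.0156) and lost its call without adult 3 (edgeR, adjusted p = 0.0509).

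The leukocyte list (miR-142, miR-146 and miR-155) took 1.88 ± 0.362% of counts at 14 days and 2.89 ± 0.274% at 2 years. Of 11 tested names 4 were higher and 1 lower with TMM, beside 13.3% and 16.2% of all 345 miRNAs. With the total count none was higher and 3 were lower, beside 4.06% and 35.9%. Medians were 1.31 and 0.31 (log2). miR-142-5p, found across blood cells in vertebrates, had 3802, 2992 and 3210.0 CPM at 14 days and 12513, 12594 and 12269.8 CPM at 2 years, and miR-142-3p had 163, 113 and 124 CPM at 14 days and 578, 576 and 596 CPM at 2 years. Every adult lay above every nestling in both arms, also in share, with TMM rises of 3.74-fold (edgeR, adjusted p = 0.00225) and 4.38-fold (edgeR, adjusted p = 0.00158). miR-146c-5p, of a family induced by inflammatory signalling in mammals, had 8432, 5426 and 11728 CPM at 14 days and 22290.0, 25469.8 and 30487 CPM at 2 years and rose 3.06-fold with TMM (edgeR, adjusted p = 0.00905). miR-155-5p, of activated lymphocytes and macrophages, had 48.3, 74.9 and 89.9 CPM at 14 days and 65.2, 51.7 and 28.3 CPM at 2 years, overlapping and not called with TMM (edgeR, adjusted p = 0.503). The fall in the list was a second entry, a miR-142-3p name taken over from other species, with a mean of 4.85 CPM at 14 days and 0 in every adult. In the libraries titled 1 day, with the doubt given above on their age, and at 28 days the mean of miR-142-5p was 10459 and 18547 CPM, so its 14-day mean of 3335 CPM was the lowest of the 4 ages.

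miRNAs that mark epithelia other than hepatocytes, striated muscle and neurons were all lower at 2 years where called, under both scalings. Of 11 tested epithelial names 7 were lower and none higher with TMM, and 8 lower with the total count. Among the 7 was miR-96-5p, with a mean of 3.71 CPM at 14 days and 0 in every adult. It passed the low-count filter through younger libraries only. Lower calls made up 16.2% of all 345 miRNAs with TMM and 35.9% with the total count. The median log2 fold change of the epithelial names was -2.58 (TMM). miR-205a-5p, of stratified epithelia, had 2252, 486 and 518 CPM at 14 days and 31.03, 32.96 and 17.6 CPM at 2 years. Nestling 1 was far above the other nestlings, and all adults were near the bottom. The fall of 39.9-fold (log2 fold change -5.32 ± 1.18, SE, edgeR, adjusted p = 0.0089) was 16.9-fold without nestling 1, and the call ended without adult 3 (edgeR, adjusted p = 0.0509). miR-31-5p had 195, 54.9 and 59.4 CPM at 14 days and 18.7, 13.9 and 14.4 CPM at 2 years, a fall of 6.58-fold (edgeR, adjusted p = 0.00311) and of 3.402-fold without nestling 1. miR-182-5p, of the miR-183 cluster of sensory epithelia, had 179, 79.2 and 78.00 CPM at 14 days and 15.7, 26.2 and 14.1 CPM at 2 years, and fell 5.998-fold (edgeR, adjusted p = 0.0066) and 3.83-fold without nestling 1. Nestling 1 was thus the highest library for each of these 3. Of the miR-200 family, which marks bile duct cells in mammals, only miR-200b-5p was called, lower by 3.27-fold (edgeR, adjusted p = 0.0292). miR-200a-3p had 329, 226 and 234 CPM at 14 days and 257, 306 and 299.9 CPM at 2 years, and miR-200b-3p had 351, 251 and 286 CPM at 14 days and 176, 101 and 210.0 CPM at 2 years. Neither was called with TMM (edgeR, adjusted p = 0.795 and 0.0584). The list as a whole took 0.274 ± 0.161% of counts at 14 days and 0.0447 ± 0.00144% at 2 years.

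Of 7 tested muscle names 4 were lower and none higher with TMM, beside 16.2% lower over all 345 miRNAs. With the total count 6 were lower, beside 35.9%, and the median log2 fold change was -2.31 (TMM). miR-499-5p, from an intron of a slow and cardiac myosin gene, had 154, 234 and 858 CPM at 14 days and 88.3, 37.6 and 16.7 CPM at 2 years. The nestlings ranged widely, and the lowest of them was above the highest adult. The fall of 8.74-fold (edgeR, adjusted p = 0.0433) was not called without any of the 6 libraries, 1-day library 1 or any 28-day library (edgeR, adjusted p from 0.0597 to 0.173), and its fold ran from 4.06 without nestling 3 to 14.3 without adult 1. miR-133a-3p, of striated muscle, had 3781, 1406 and 1246 CPM at 14 days and 383, 544 and 558 CPM at 2 years, which did not overlap and was not called with TMM (edgeR, adjusted p = 0.0622). miR-1a-3p fell 13.4-fold (edgeR, adjusted p = 0.0231), from 25.1 ± 7.22 to 1.86 ± 0.758 CPM (SD, n = 3). The list took 0.366 ± 0.151% of counts at 14 days and 0.0380 ± 0.00595% at 2 years.

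Of the 3 tested neural names 2 were lower and none higher with TMM, beside 16.2% lower over all 345 miRNAs. With the total count 3 were lower, beside 35.9%. miR-9-5p, of neural progenitors and neurons, had 395, 396 and 603 CPM at 14 days and 37.7, 41.6 and 26.1 CPM at 2 years, a fall of 13.2-fold (edgeR, adjusted p = 0.0223) that was not called without any of the 6 libraries (edgeR, adjusted p from 0.0522 to 0.096). Its other arm, miR-9-3p, fell 6.67-fold (edgeR, adjusted p = 0.0127). Of 4 tested pancreas names none was called with TMM and 1 was lower with the total count. Their median log2 fold change of 1.98 with TMM came from scarce names, as miR-375-3p held 94.5% of the list's counts. The list took 0.0651 ± 0.0157% of counts at 14 days and 0.0225 ± 0.00854% at 2 years. miR-375-3p, of islet cells, had 552, 469.5 and 351 CPM at 14 days and 233, 394 and 256 CPM at 2 years, overlapping between the ages. The part that such cells have in the other differences was not tested.

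**Figure D4:**
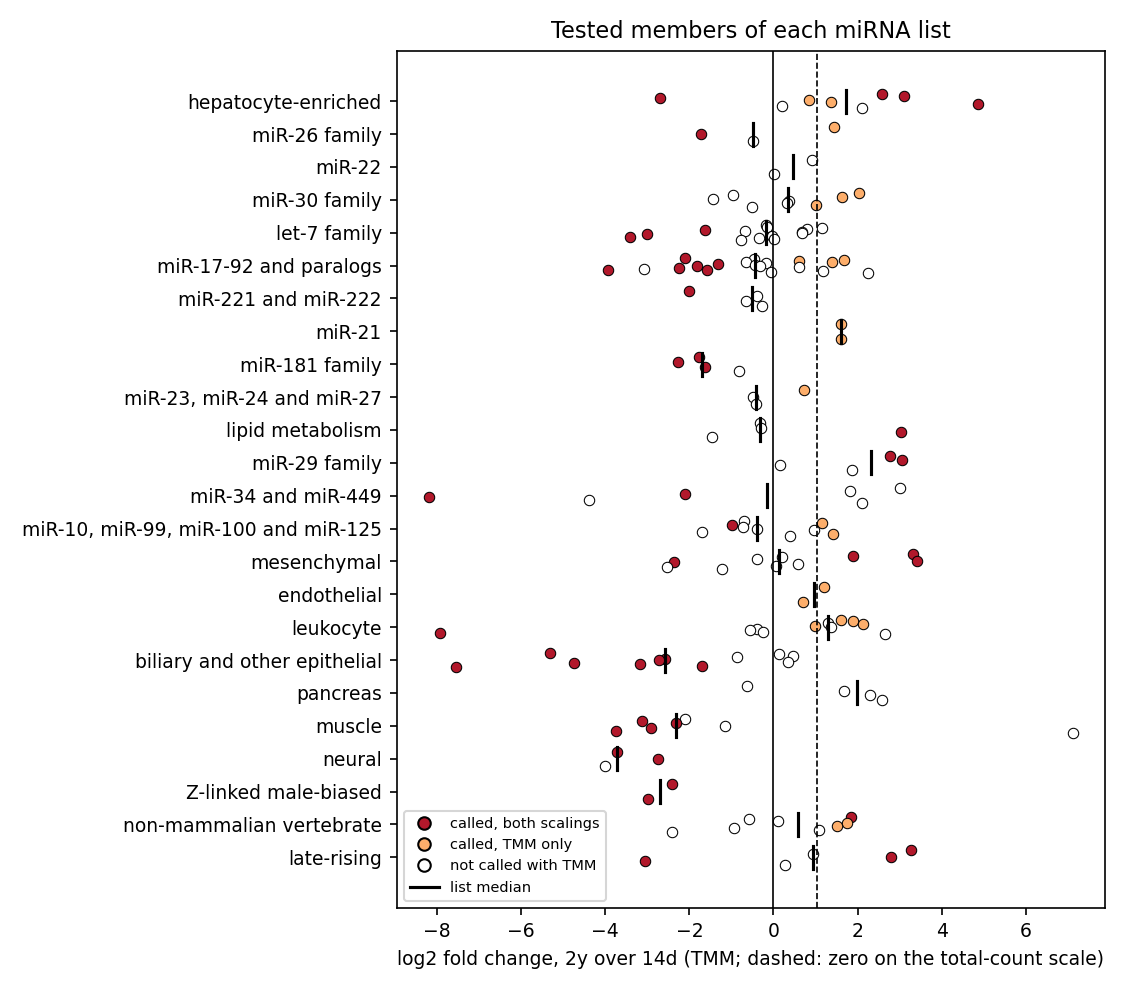
Log2 fold change, 2 years over 14 days, on the TMM scale for every tested member of each miRNA list, 1 point per miRNA. Red points were called under both scalings, orange points with TMM alone, open points were not called with TMM, and bars are list medians. The dashed line is zero on the total-count scale. The epithelial, muscle and neural lists have medians of -2.58, -2.31 and -3.72, and the rises of the miR-30, miR-21, endothelial and leukocyte lists are orange.

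Where a list had no call in a direction with edgeR and TMM, other counts were as follows. No epithelial, neural, miR-181, miR-34 and miR-449, or miR-221 and miR-222 name was higher at an unadjusted p under 0.05, with DESeq2 or with limma voom. No miR-22 or pancreas name passed in either direction at the unadjusted p or with those tools, and no miR-21, miR-29, endothelial, lipid metabolism, or miR-23, miR-24 and miR-27 name was lower. No Z-linked name was higher at the unadjusted p or with those tools. Among the non-mammalian names 1 was lower at the unadjusted p and none with the other tools. Among let-7 names 1 was higher at the unadjusted p and 1 with DESeq2, and none with limma voom. Among muscle names 1 was higher at the unadjusted p and none with the other tools. Among miR-30 names 1 was lower at the unadjusted p and 1 with DESeq2, and none with limma voom.

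miR-2954 lies on the Z chromosome of birds and is higher in males than in females in chicken and zebra finch. miR-2954-3p had 18877, 12231 and 9725 CPM at 14 days and 2590.1, 2140.4 and 2977 CPM at 2 years. miR-2954-5p had 226, 116 and 80.7 CPM at 14 days and 23.3, 12.6 and 17.4 CPM at 2 years. The ages did not overlap in either arm, which the rule that named both as large falls required. They fell 5.298-fold (edgeR, adjusted p = 0.00295) and 7.92-fold (edgeR, adjusted p = 0.0127), and miR-2954-5p lost its call without nestling 1, adult 2 or adult 3 (edgeR, adjusted p from 0.0651 to 0.0724). Because the labels do not say which sexes were sequenced, a difference in sex between the groups and a difference with age cannot be told apart for this miRNA. In share of counts the mean of miR-2954-3p was 0.434% in the libraries titled 1 day, 1.88% at 14 days, 0.416% at 28 days and 0.170% at 2 years.

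The miRNAs that lie in Hox clusters or beside let-7 in vertebrates (miR-125, miR-100, miR-99 and miR-10) had 9 tested names, of which 2 were higher and 1 lower with TMM, and none higher and 3 lower with the total count. These counts stand beside 13.3% higher and 16.2% lower over all 345 miRNAs with TMM, and 35.9% lower with the total count. The median log2 fold change was -0.40 with TMM and -1.42 with the total count. miR-10a-5p had 7725, 6065 and 9897 CPM at 14 days and 18779, 18881 and 14665 CPM at 2 years and rose 2.21-fold with TMM (edgeR, adjusted p = 0.0127). Its CPM did not overlap between the ages, and its shares did. miR-125-5p, the vertebrate kin of worm lin-4, had 22879.7, 13194 and 12224 CPM at 14 days and 7546, 8247 and 8515 CPM at 2 years and fell 1.99-fold (edgeR, adjusted p = 0.0168). That call ended without nestling 1, any of the adults or 28-day library 1 (edgeR, adjusted p from 0.0564 to 0.129).

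Of 6 tested names of miR-34 and miR-449, which act downstream of p53 and in ciliated cells of mammals, none was higher with TMM. Lower with TMM were 2, beside 16.2% of all 345 miRNAs, and with the total count 3, beside 35.9%. The 2 were miR-34c-5p and a miR-449b-3p name taken over from other species. The latter had a mean of 5.81 CPM at 14 days and 0 in every adult, and passed the low-count filter through younger libraries only. miR-34a-5p had 12.1, 39.2 and 28.9 CPM at 14 days and 126, 34.3 and 485 CPM at 2 years. The adults spread widely and overlapped the nestlings, and the difference was not called (edgeR, adjusted p = 0.159). The cluster of miR-23, miR-24 and miR-27 had 3 tested names. With TMM 1 was higher and none lower, beside 13.3% and 16.2% of all 345 miRNAs. The call was of miR-27b-3p, higher by 1.67-fold (edgeR, adjusted p = 0.031). That call ended without nestling 2, adult 2 or adult 3 (edgeR, adjusted p from 0.0595 to 0.0728), and the log2 fold change was -0.30 with the total count.

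Families described in birds, reptiles or fish and not in placental mammals (miR-456, miR-1388, miR-1662 and miR-2188) had 8 tested names. Of these 3 were higher and none lower with TMM, beside 13.3% and 16.2% of all 345 miRNAs. With the total count 1 was higher and 1 lower, beside 4.06% and 35.9%. miR-1662-5p, a bird miRNA, had 1229, 727 and 828 CPM at 14 days and 3140.4, 3587 and 3187 CPM at 2 years and rose 3.56-fold (edgeR, adjusted p = 0.00183) under both scalings, without overlap. miR-1388-5p had 118, 139 and 209 CPM at 14 days and 401, 662 and 272 CPM at 2 years and rose 2.86-fold with TMM (edgeR, adjusted p = 0.0168), a call that ended without nestling 1, nestling 2 or adult 2 (edgeR, adjusted p from 0.0529 to 0.0745). The miR-302 and miR-367 families of pluripotent cells had no tested name.

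The balance of the arms within a hairpin does not depend on how libraries are scaled, since both arms are counted in the same library. Of 103 hairpins with both arms tested, 31 shifted (30.1%; limma on the log2 ratio of 5p to 3p counts, adjusted p below 0.05), 13 toward 5p and 18 toward 3p at 2 years. Every one of the 31 shifts was at least 2-fold. The arm that was the more abundant at 14 days gained in 20 of them and the less abundant arm in 11. Ratios did not overlap between the ages in 60 of the 103 hairpins (58.3%). The arm that reads were counted under was not stable in every hairpin. In miR-456, not called, the 3p arm made up 100, 0 and 0% at 14 days and 100, 0 and 100% at 2 years. Why the counted arm changed between libraries of the same age was not tested, and ratios rest on the arm names as deposited. In 2 hairpins, miR-148a and miR-26, the arms were called in opposite directions by the edgeR test with TMM as well. For miR-26 this rests on the rise of miR-26-5p, which was called with TMM alone. That call ended when any single nestling, adult 1 or adult 3 was left out.

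In the miR-148a hairpin the 5p arm made up 0.964, 0.955 and 0.554% at 14 days and 0.0295, 0.0180 and 0.0156% at 2 years. This 39.7-fold move toward 3p was the largest of the 31 called (shift of -5.31 ± 0.49, SE, limma, adjusted p = 4.42e-05). In the miR-26 hairpin the 3p arm made up 0.106, 0.107 and 0.117% at 14 days and 0.0129, 0.0145 and 0.0109% at 2 years (shift of 3.12 ± 0.41, SE, limma, adjusted p = 0.000311). For both, the minor arm was already scarce in nestlings and scarcer still in every adult. The same direction of change was seen in miR-29b, whose 5p arm was 7.66, 9.003 and 7.86% at 14 days and 1.42, 0.837 and 1.24% at 2 years (shift of -2.94 ± 0.60, SE, limma, adjusted p = 0.003). miR-454, of the miR-130 seed family, had a 5p share of 0.467, 0.286 and 0.200% at 14 days and 0.0272, 0.0390 and 0.0606% at 2 years (shift of -2.88 ± 0.55, SE, limma, adjusted p = 0.00277). In miR-1662 the minor 3p arm was 2.12, 2.17 and 2.33% at 14 days and 0.287, 0.334 and 0.352% at 2 years (shift of 2.79 ± 0.33, SE, limma, adjusted p = 0.000167). The ages did not overlap in any of these 5 hairpins. The second miR-148a entry, miR-148a-1 under a name taken over from other species, was not called (shift of 0.63 ± 0.31, SE, limma, adjusted p = 0.173).

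In other hairpins the minor arm had a larger share at 2 years than at 14 days. In miR-145 the 3p arm made up 2.33, 2.25 and 2.72% at 14 days and 27.6, 24.9 and 26.00% at 2 years (shift of -3.83 ± 0.38, SE, limma, adjusted p = 5.35e-05). In the levels given above, miR-145-3p rose and miR-145-5p was not called. In let-7f the 3p arm was 2.32, 4.601 and 5.49% at 14 days and 21.5, 20.6 and 22.98% at 2 years (shift of -2.77 ± 0.41, SE, limma, adjusted p = 0.0006). In miR-214 the 5p arm was 3.34, 6.704 and 10.96% at 14 days and 24.7, 24.3 and 26.2% at 2 years (shift of 2.31 ± 0.47, SE, limma, adjusted p = 0.003), and in miR-140 it was 0.589, 0.791 and 0.977% at 14 days and 3.31, 3.48 and 3.94% at 2 years (shift of 2.25 ± 0.31, SE, limma, adjusted p = 0.000407). The ages did not overlap in any of these 4 hairpins. Mean log2 ratios at 1, 14 and 28 days and 2 years were 2.39, 5.33, 0.78 and 1.497 for miR-145. They were 1.997, 4.62, 1.59 and 1.85 for let-7f. For miR-214 they were -1.504, -3.89, -1.88 and -1.58, and for miR-140 -4.90, -7.01, -4.59 and -4.76. In all 4 the means of the libraries titled 1 day and of 28 days were closer to the adult than to the 14-day mean.

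In 3 of the called hairpins the more abundant arm by mean ratio switched. In miR-33 the 3p arm made up 70.8, 78.6 and 81.4% at 14 days and 24.7, 11.5 and 2.24% at 2 years (shift of 5.08 ± 1.02, SE, limma, adjusted p = 0.003). The adults ranged widely, so the 33.7-fold shift was 61.04-fold without adult 1 and 16.3-fold without adult 3. Every 14-day nestling had mostly 3p and every adult mostly 5p. The libraries titled 1 day had log2 ratios of 2.28, 2.34 and 1.77, so they had mostly 5p, as the adults did. At 28 days the ratios were -0.11, 3.80 and 2.25. In miR-551b, with a mean under 100 CPM in both arms at both ages and chosen after its values were seen, the 5p arm made up 63.4, 55.8 and 59.6% at 14 days and 8.01, 10.4 and 8.97% at 2 years (shift of -3.88 ± 0.61, SE, limma, adjusted p = 0.000805). miR-7a also had a mean under 100 CPM in both arms at both ages and was chosen after its values were seen. Its 5p arm made up 38.9, 27.4 and 25.1% at 14 days and 66.1, 66.7 and 69.8% at 2 years (shift of 2.27 ± 0.55, SE, limma, adjusted p = 0.00862). For miR-551b the mean log2 ratio was -2.77 at 1 day and -3.87 at 28 days, against 0.56 at 14 days and -3.31 at 2 years. For miR-7a it was 0.49 at 1 day and 1.32 at 28 days, against -1.21 at 14 days and 1.06 at 2 years. In the miR-30 family, miR-30d gained 3p and miR-30a and miR-30e gained 5p, but the 3p counts of miR-30a and miR-30e were near equal, so their ratios are uncertain. In miR-30d the 3p arm was 0.108, 0.0964 and 0.0883% at 14 days and 0.458, 0.330 and 0.386% at 2 years (shift of -2.00 ± 0.35, SE, limma, adjusted p = 0.00149). The arms of miR-21 kept their ratio, with a 3p share of 0.947, 0.985 and 0.952% at 14 days and 1.02, 0.883 and 0.932% at 2 years and a shift of 0.03 ± 0.39 (SE, limma, adjusted p = 0.958).

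**Figure D5:**
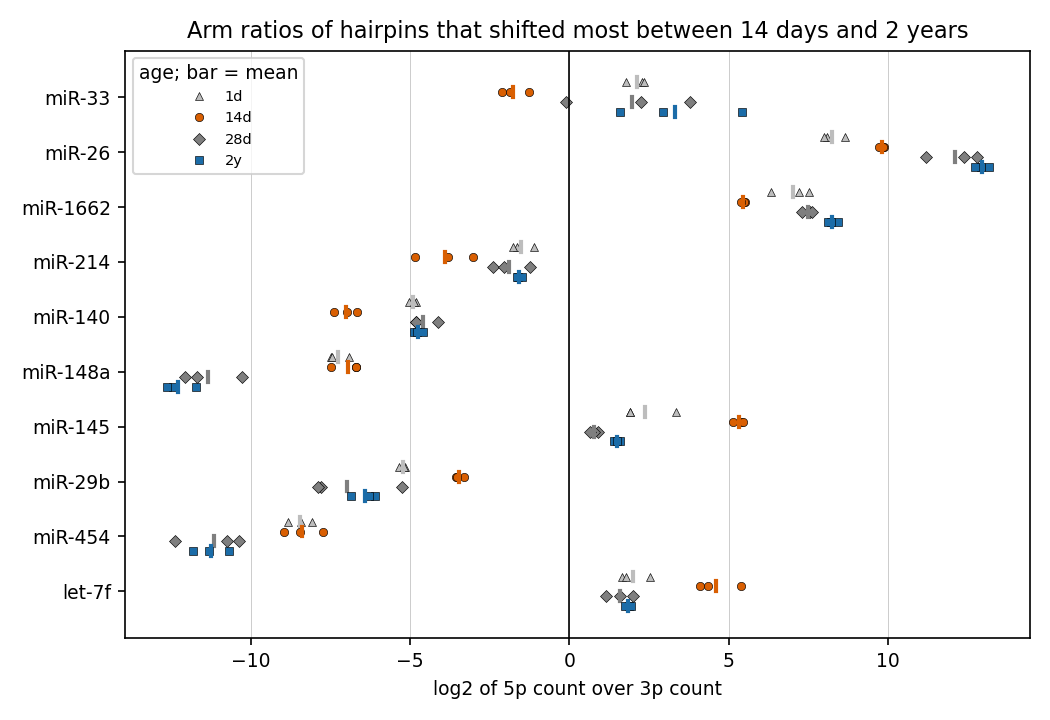
Log2 ratio of 5p to 3p counts in each library for the 5 largest shifts toward 5p and the 5 largest toward 3p among called hairpins with at least 100 CPM in the more abundant arm. Circles are 14-day and squares 2-year libraries, triangles are 1-day and diamonds 28-day libraries, and bars are means of 3. To the right of zero the 5p arm is more abundant. miR-33 crosses zero between the ages, and miR-148a moves farthest, by -5.31.

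The falls included miRNAs that were not seen in any adult library. Of the miRNAs called lower, 11 had a count of 0 in all adults and a mean of 2.94 to 8.03 CPM at 14 days. The filter on low counts ran over all ages, so these names passed it through younger libraries only. They are part of the 56 falls, and none of the rises lacked counts in all nestlings. Against a floor of 3 counts, averaged over the adult libraries, miR-96-5p, of the miR-183 cluster, was at least 7.05-fold lower and miR-1306-5p at least 11.02-fold lower. Such low values limit what can be said of adults to amounts under that floor. By the origin of the name, 236 of 324 known pigeon names were tested, with 43 higher and 47 lower. Of 502 names taken over from other species 56 were tested, with 1 higher and 6 lower, and of 213 predicted names 53 were tested, with 2 higher and 3 lower. Most of these 6 falls and all 3 falls of predicted names were among the 11 with a count of 0 in all adults. Over all 345 tested miRNAs 13.3% were higher and 16.2% lower with TMM. Known pigeon names held 99.86% of counts at 14 days and 99.92% at 2 years.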

How the data were processed

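Small RNA of 10 to 45 nt from individual livers was sequenced as 50 bp single-end reads, per the labels' protocols. The table deposited by the authors gives 1 raw read count for each mature miRNA and library, per the file headers. The submitters' processing notes name Bowtie. For its version, the build, the counting program and the treatment of reads matching several miRNAs, details were not given in the sources used here, and reads that fit several names can be split or counted more than once. Shares and CPM are relative to the counts of the 1039 names analysed, and certain miRNAs are not reported here.

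Counts were tested with edgeR 4.0.16 in R 4.3.3 (glmQLFit and glmQLFTest, robust), after filterByExpr and TMM scaling, over all 12 libraries with 1 mean per age, which share 1 estimate of the spread. P-values were adjusted by Benjamini-Hochberg over the 345 tested miRNAs, with a threshold of 0.05. The SE of a log2 fold change was derived from the test statistic. The common biological coefficient of variation was 0.807. Arm ratios, log2 of 5p over 3p counts with a pseudocount of 0.5, were tested with limma 3.58.1 over 103 hairpins. Summary measures of libraries were compared by an exact two-sided permutation test. Scripts were tested on simulated data.

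Libraries are separate pigeons. Pairs within an age differed far beyond sampling noise (chi-square per degree of freedom 406 to 1254), so each counted as 1 replicate. Deviations of same-numbered libraries from their age means had correlations of 0.00335, 0.106 and -0.0974, and nothing in the labels ties the numbers, so no pairing was used. The SD and SE values include the spread between birds. The floor of 3 counts covers counting error only, and reads without molecular identifiers are not independent molecules. Columns not used numbered 0.

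Members, lists and tests were chosen with earlier results of these data known. Named were the 10 largest rises and 10 largest falls among called miRNAs that reached a mean of 100 CPM at 14 days or 2 years and whose ages did not overlap, the 10 largest mean shares, up to 3 members of each list with the smallest adjusted p and at least 100 CPM, and the 5 largest called arm shifts in each direction with at least 100 CPM in the more abundant arm. Others are named as chosen after their values were seen, or are the called members and marker genes of a list. The cell type lists hold miRNA families: miR-101, miR-148, miR-194 and miR-215 for hepatocytes, miR-214, miR-199, miR-145 and miR-143 for mesenchymal cells, miR-126 for endothelium, miR-142, miR-146 and miR-155 for leukocytes, miR-31, miR-96, miR-141, miR-182, miR-183, miR-200, miR-205 and miR-429 for other epithelia, miR-216, miR-217 and miR-375 for pancreas, miR-1, miR-133 and miR-499 for muscle and miR-9 and miR-124 for neurons. Alternatives were the total count, relative log expression and upper quartile scaling, DESeq2 1.42.0, limma voom, other filters, the 6 libraries alone, a replicate block, removal of the most abundant miRNA and leaving out each library. Mature sequences and a grouping by seed were not used here.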

Additional observations from a re-analysis of the deposited data

How the results depend on the processing

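The calls depended on the scale, the filter and single libraries. With the library total alone 14 miRNAs were higher and 124 lower, against 46 and 56 with TMM, and calls in the same direction under both scalings, an alternative chosen after seeing the data, numbered 14 higher and 56 lower. On that scale 7 of the 102 calls changed sign, with log2 fold changes of -0.038 for miR-30d-3p, -0.30 for miR-27b-3p, -0.36 for miR-126-3p, -0.45 for miR-17-5p, -0.34 for miR-15a-5p, -0.070 for miR-146c-3p and -0.21 for miR-148a-1-5p under the name taken over from other species. The uncalled miR-22-3p turned to -0.17. Relative log expression gave 48 higher and 58 lower, upper quartile 46 and 62, DESeq2 63 and 71, limma voom 50 and 71, the 6 libraries alone 69 and 69, and removal of the most abundant miRNA 49 and 52. None of the 102 calls changed sign under these 6 alternatives. With no filter on low counts 51 were called, 31 higher and 20 lower, and with a mean of at least 100 CPM 51 were called, 24 higher and 27 lower, from fewer tested miRNAs.

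The labels do not pair the libraries. With the replicate block 75 were called, 42 higher and 33 lower, and 29 arm shifts were called, 12 toward 5p and 17 toward 3p. With at least 10 counts in each of the 6 libraries 12 arm shifts went toward 5p and 11 toward 3p, against 13 and 18 in the main fit. In a fit of the 6 libraries alone 17 went toward 5p and 28 toward 3p.

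Leaving out 1 library of any age gave 52 to 113 calls, 34 to 65 higher and 17 to 55 lower. Leaving out 1 of the 6 compared libraries gave 52 to 64 calls, 34 to 42 higher and 17 to 29 lower. The main fit had 102 calls, 46 higher and 56 lower. Falls numbered 20, 29 and 25 without nestling 1, 2 and 3, and 24, 17 and 17 without adult 1, 2 and 3. The filter depends on the libraries, so the tested set also changed. Arm shifts numbered 24 to 29, with 9 to 13 toward 5p and 13 to 17 toward 3p. The difference in the share of the top 10 was 11.68 to 13.58 percentage points, in names -154.5 to -137.5, and in total counts 2.236e+06 to 3.910e+06. Without 28-day library 1 miR-103-3p had a log2 fold change of 0.018 and miR-107-3p one of 0.023, against lowest values of -0.33 without other libraries. The cause of these changes was not tested.

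Seed families could not be tested, since mature sequences were not used here. Among miRNAs with few counts, those at 0 in all adults have a bound and no fold. With 3 birds per age the exact test cannot go below 0.10.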
